A study of Rattus norvegicus with 8 samples.

Results

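Protective and death-promoting genes of the Bcl2 family, with the caspase inhibitor gene Xiap, were followed in lumbar spinal motoneurons between postnatal day 1 (P1) and postnatal day 21 (P21). The members were Bcl2, Bcl2l1, Bcl2l2, Mcl1, Bax, Bak1, Bbc3, Bnip3, Bnip3l and Xiap, and every probe set that the platform annotation assigns to exactly 1 of these symbols was taken. That gave 15 of the 31042 probe sets on the array, for 9 of the 10 genes. The 1 probe set naming Bax carries a further symbol as well, so Bax has no value here. All animals were Wistar albino rats with no further treatment or genotype named in the labels, and the groups differ in age alone: P1, while motor axons are being myelinated, and P21, when myelination is complete. Each age had 4 biological replicates, 1 Affymetrix RAE230 2.0 array each, and the design text states that 4 litters were divided between the ages. Each array carried RNA of motoneurons cut from cresyl violet stained sections by laser capture and pooled over 4 rats, amplified in 2 rounds from the poly(A) tail, per the labels' protocols.

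Proteins of the Bcl2 family decide whether the outer mitochondrial membrane is opened and cytochrome c released, which starts the caspase cascade. Protective members bind and restrain the pore-forming members Bax and Bak1, and BH3-only members such as Bbc3 (PUMA) displace that restraint. Motoneurons go through a wave of programmed death before and around birth, after which they become far less prone to die when their axon is damaged.

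Of the 9 member genes measured, 3 rose from P1 to P21 (Bcl2l2, Bnip3l and Xiap), 2 fell (Mcl1 and Bbc3) and 4 did not pass the test (Bcl2, Bcl2l1, Bak1 and Bnip3). Among all 10961 genes tested the same way, 39.4% passed, 22% higher and 17.4% lower at P21. The 5 of 9 members that passed are to be read against that share. This fit does not pair the arrays, although those of the same number deviated together from their age means. With the replicate number as a block, 46.7% of all genes passed, and Bcl2l1 passed in addition to these 5. A call means an adjusted p under 0.05 in limma's test over all kept probe sets, and each gene is counted by the brightest of its probe sets that passed the filter. The median change of the 9 genes was 0.20 on the log2 scale, beside 0.05 for all genes. Below, a change is P21 minus P1 on the log2(intensity + 16) scale ± its standard error, an intensity is linear and given ± SD, and n = 4 arrays per age. These are pooled bulk samples, in which fewer cells of a type and less RNA per cell cannot be told apart.

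Over the kept probe sets, the correlation of arrays was 0.958 to 0.986 for the same age and 0.821 to 0.868 for different ages, and array medians lay between 323 and 416. The motoneuron markers Chat, Slc18a3, Slc5a7, Prph and the neurofilament genes were bright at both ages. The summed intensity of 8 motoneuron markers was 45940 to 49645 at P1 and 47250 to 53699 at P21. Most of that sum comes from Prph, Nefl, Nefm and Nefh, with P1 means of 7947 to 10676, at or above the 99.6th percentile of the array. The sum therefore does not show that motoneuron content was stable. Of the 8, Chat rose from 1377 ± 244 to 3451 ± 450 (change 1.32 ± 0.14, adjusted p = 8.66e-05) and Isl1 fell from 790 ± 209 to 240 ± 84.4 (change -1.67 ± 0.24, adjusted p = 4.91e-04), with 1 of its 4 P21 arrays above the filter level. The summed intensity of 9 oligodendrocyte markers went from 8854 to 10628 at P1 to 36649 to 38963 at P21, where 8 of 9 rose, with Mobp at P1 at or near 0 (-2.65 to 23.5). That of 5 erythrocyte markers went from 3208 to 8861 up to 9474 to 13085, and 2 of the 4 that were tested rose. Most of this erythrocyte sum comes from Hbb, with means of 5195 at P1 and 8138 at P21, which did not pass (limma adjusted p = 0.115). In astrocyte markers 6 of 8 rose and 1 fell, in microglial markers 5 of 7 rose and in endothelial and pericyte markers 4 of 7 rose, while 3 of 6 markers of dividing cells fell. Of 5 interneuron markers 3 fell and 1 rose, and 2 were called with the replicate block. Their part in the changes of the member genes was not tested. Centring each array on its median moved the median change of all probe sets from 0.07 to -0.07 and the share of calls that were higher at P21 from 54.4% to 38.6%, so the centred change is given with each called member.

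**Figure D1:**
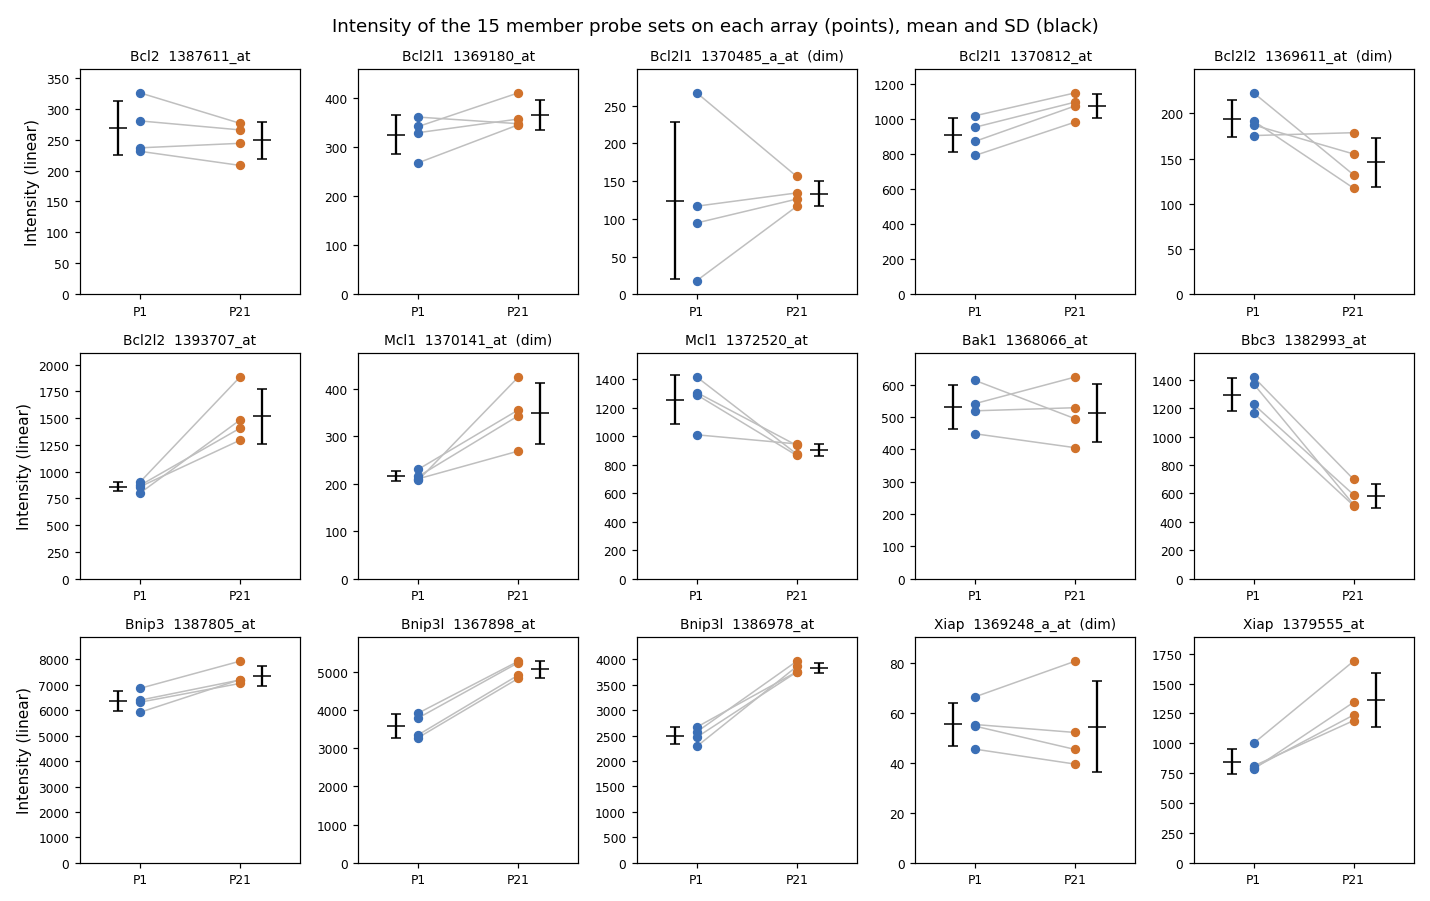
Linear intensity (vertical axes, each starting at 0) of the 15 member probe sets on each array at P1 (blue) and P21 (orange), with grey lines joining arrays of the same replicate number and black bars giving mean ± SD (n = 4). Probe sets that did not pass the filter are marked dim. Bcl2l2 1393707_at, both Bnip3l probe sets and Xiap 1379555_at lie higher at P21 on every array, Bbc3 and Mcl1 1372520_at lower.

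Bbc3, the BH3-only gene that p53 induces and that is among the strongest killers of the family, showed the largest change of the members. Its intensities at P1 were 1372, 1167, 1228 and 1419.8 for replicates 1 to 4, and at P21 they were 522, 515, 591 and 699.6. Every P21 array lay below every P1 array. The mean went from 1297 ± 119 to 582 ± 85.8, a change of -1.14 ± 0.12 or 2.20-fold lower (limma adjusted p = 7.86e-05), and -1.28 on centred arrays. Within same-numbered arrays the differences were -1.37, -1.16, -1.03 and -1.005, so the fall was of like size in all 4. Of the 10961 genes tested, 372 had a lower change than Bbc3.

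Bcl2l2 encodes Bcl-w, a protective member made in neurons and important for axon survival. Its probe set 1393707_at read 800.1, 859, 903 and 872 at P1 and 1483, 1294, 1885 and 1406 at P21. The groups did not overlap, and the spread was wider at P21, where replicate 3 stood highest. The mean went from 859 ± 43.2 to 1517 ± 257, a change of 0.80 ± 0.12 or 1.74-fold higher (limma adjusted p = 7.18e-04), and 0.66 on centred arrays. Same-numbered arrays differed by 0.58 to 1.05, higher at P21 in 4 of 4, and 966 of all genes tested had a larger change. The gene's other probe set, 1369611_at, was dim at both ages, with 175 to 222 at P1 and 117 to 179 at P21, under the filter level (the 40th percentile of the array, 221 to 287) on every array. It was lower at P21 in 3 of the 4 same-numbered pairs and was not tested. Fitted without the filter it changed by -0.39 ± 0.14, the opposite direction, and did not pass (limma adjusted p = 0.0827). The rise of Bcl2l2 therefore rests on 1 probe set.

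Mcl1, a short-lived protective protein on which young neurons depend, was read by a pair of probe sets that pointed in opposite directions. On 1372520_at the P1 intensities were 1009, 1289, 1306 and 1414 and the P21 intensities 945, 864, 935 and 874. All P21 arrays lay below all P1 arrays, narrowly for replicate 1. The mean fell from 1255 ± 173 to 905 ± 41.3, a change of -0.46 ± 0.11 or 1.37-fold lower (limma adjusted p = 0.0114), and -0.59 on centred arrays. Same-numbered arrays differed by -0.09, -0.57, -0.48 and -0.68.

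On 1370141_at, the dimmer Mcl1 probe set, the P1 intensities were 211, 231, 216 and 208, all under the filter level, and the P21 intensities were 269, 356, 343 and 425. Every P21 array lay above every P1 array, and 3 of the 4 P21 arrays exceeded the filter level. With 3 arrays above it this probe set missed the filter and was not tested; set against the filter level it was at least 1.34-fold higher at P21. Fitted without the filter it changed by 0.63 ± 0.14 (limma adjusted p = 0.0106), where 13% of all probe sets were called higher. The fall counted for Mcl1 therefore holds for 1 of its probe sets and not for the gene as a whole, and the part of the transcript that each reads is not analysed here.

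The promoters of Bcl2l2 and Mcl1, the protective members with a called probe set, are shown from RefSeq (build GRCr8, 250 bases before to 50 after the annotated start, 5′ to 3′ on the gene's strand), with each GC box, GGGCGG on either strand, in capitals. Bcl2l2 lies on the + strand (chr15:32326511-32326810) and Mcl1 on the + strand (chr2:185907918-185908217).
Bcl2l2: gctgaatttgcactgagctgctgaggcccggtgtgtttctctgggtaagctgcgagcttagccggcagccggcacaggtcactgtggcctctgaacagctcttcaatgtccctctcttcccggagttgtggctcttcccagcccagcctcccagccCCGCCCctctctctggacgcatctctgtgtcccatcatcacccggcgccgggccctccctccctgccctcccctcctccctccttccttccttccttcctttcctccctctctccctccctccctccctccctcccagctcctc
Mcl1: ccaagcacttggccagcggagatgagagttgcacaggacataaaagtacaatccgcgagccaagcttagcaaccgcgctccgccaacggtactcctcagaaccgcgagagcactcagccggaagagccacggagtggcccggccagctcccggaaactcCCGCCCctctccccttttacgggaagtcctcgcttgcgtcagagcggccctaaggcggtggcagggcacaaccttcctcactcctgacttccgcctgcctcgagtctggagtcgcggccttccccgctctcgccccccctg
Each window held 1 GC box, read on the minus strand, and 33.1% of the 33469 promoters in the table hold at least 1. Neither held ACGTG, the core of the hypoxia response element, on either strand. The table held promoters for 6 of the 10 members.

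Bcl2 and Bcl2l1, the best known protective genes, did not pass. Bcl2 is the founding member and the one expressed highly in developing neurons. Its probe set read 280.0, 325, 231 and 237 at P1 and 266, 276, 208 and 244 at P21. The ages overlapped, and all 4 P21 arrays lay under the filter level while all 4 P1 arrays lay above it. The means were 268 ± 43.9 and 248 ± 30.0, a change of -0.10 ± 0.13 with a 95% interval of -0.40 to 0.20 (limma adjusted p = 0.592). The P21 level is an upper bound, and no lower bound for a fold is given because it would be under 1.

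Bcl2l1 encodes Bcl-xL, the main protective member of mature neurons. Its brightest probe set, 1370812_at, read 955, 794, 874 and 1020.0 at P1 and 1098, 984, 1076 and 1151 at P21. The ages overlapped, yet each P21 array exceeded the P1 array of its own number, by 0.17 to 0.30. The change was 0.24 ± 0.10 with a 95% interval of 0.01 to 0.48 and did not pass (limma adjusted p = 0.0948), but with the replicate number as a block it did (adjusted p = 0.0378). On centred arrays the change was 0.10 (adjusted p = 0.596). Probe set 1369180_at read 268 to 361 at P1 and 345 to 410.4 at P21, a change of 0.16 ± 0.11 (adjusted p = 0.282). The third, 1370485_a_at, lay under the filter level on all 8 arrays, with 18.4 to 267 at P1 and 117 to 156 at P21.

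Bak1, the pore-forming member with a value here, did not pass. Its intensities were 519, 613, 448 and 542 at P1 and 529, 495, 405 and 624 at P21. The ages overlapped throughout, and Bak1 was higher at P21 in 2 of 4 same-numbered pairs. The change was -0.05 ± 0.14, with a 95% interval of -0.38 to 0.27 (limma adjusted p = 0.791), and -0.19 on centred arrays.

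**Figure D2:**
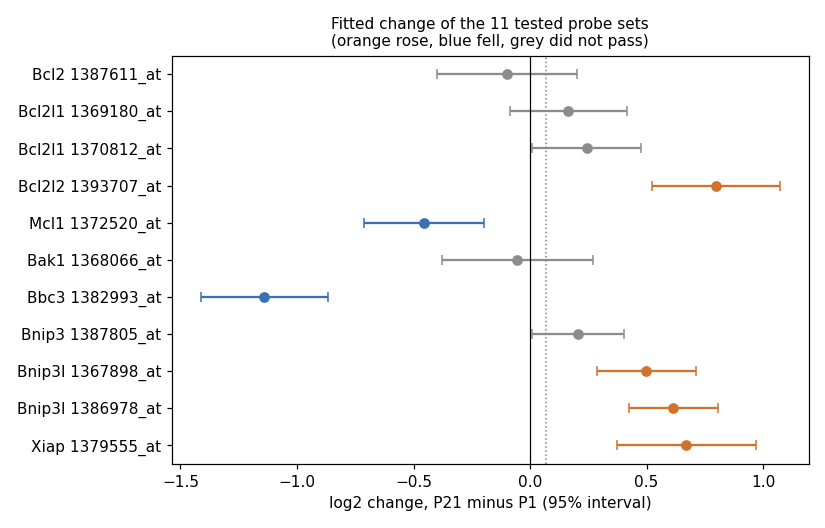
Log2 change from P1 to P21 with its 95% interval (horizontal axis) for the 11 member probe sets that passed the filter, 4 arrays per age; orange rose, blue fell, grey did not pass, and the dotted line marks the median of all kept probe sets (0.07). Bbc3 lies lowest at -1.14 and Bcl2l2 highest at 0.80.

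Bnip3 and Bnip3l (NIX) are relatives of the BH3-only proteins that sit in the outer mitochondrial membrane and recruit the autophagy machinery, marking mitochondria for removal, and both can promote cell death. Both Bnip3l probe sets rose. On 1386978_at the P1 intensities were 2286, 2467, 2572 and 2666 and the P21 intensities 3856, 3747, 3959.8 and 3751. The groups stood well apart and neither was spread widely. The change was 0.61 ± 0.09 or 1.53-fold higher (limma adjusted p = 4.02e-04), and 0.48 on centred arrays.

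On 1367898_at, Bnip3l read 3351, 3277, 3918 and 3791 at P1 and 4911, 4826, 5274 and 5236 at P21, again without overlap. The change was 0.50 ± 0.09 or 1.41-fold higher (limma adjusted p = 0.00246). On centred arrays it was 0.36 and no longer passed (adjusted p = 0.0684). In pairs of the same number the 2 probe sets were higher at P21 by 0.43 to 0.56 and by 0.49 to 0.75. Bnip3l is also abundant in maturing red cells, and 2 of the 4 erythrocyte markers tested were called higher at P21. Alas2 changed by 1.93 ± 0.31 (limma adjusted p = 9.74e-04). Ahsp changed by 2.66 ± 0.15 (adjusted p = 2.16e-06), with 1 of its 4 P1 arrays above the filter level. Slc4a1 (0.19 ± 0.13) and Hbb, a globin gene (0.76 ± 0.35, adjusted p = 0.115), did not pass. Hbb read 2147 to 7248 at P1 and 5802 to 9423 at P21, with P1 replicate 2 lowest. Without P1 replicate 2 the Bnip3l changes were 0.61 and 0.46, both called, a fit that cannot tell red cell RNA from age. The part of red cell RNA in the Bnip3l values was not tested.

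Bnip3, a target of the hypoxia-inducible factors, was among the brightest transcripts on the arrays, at the 98.7th percentile of the array at P1 and the 99.5th at P21 on average. It read 5919, 6396, 6861 and 6316 at P1 and 7204, 7190.4, 7929 and 7055 at P21. Every P21 array lay above every P1 array, and same-numbered arrays differed by 0.16 to 0.28. The change was nevertheless small, 0.20 ± 0.09 with a 95% interval of 0.01 to 0.40, and did not pass (limma adjusted p = 0.0958). With quantile normalization it was 0.28 and passed (adjusted p = 0.0115), with an unmoderated linear model it passed (adjusted p = 0.0382), and on centred arrays it was 0.07 (adjusted p = 0.733).

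The Bnip3 promoter (GRCr8, chr1:203154913-203155212, - strand, RefSeq) is shown because it is the member promoter in the table with the most matches to both motifs, with GGGCGG and ACGTG on either strand in capitals.
Bnip3: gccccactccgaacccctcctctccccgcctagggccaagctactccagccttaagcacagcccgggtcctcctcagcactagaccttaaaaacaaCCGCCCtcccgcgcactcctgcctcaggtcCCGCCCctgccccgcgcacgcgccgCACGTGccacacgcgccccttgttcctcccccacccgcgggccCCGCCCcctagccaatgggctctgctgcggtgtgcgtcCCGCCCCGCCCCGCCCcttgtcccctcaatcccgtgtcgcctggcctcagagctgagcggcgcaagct
It held GGGCGG 6 times, all on the minus strand, with 3 of these in an overlapping run, and ACGTG once on each strand as the palindrome CACGTG. Of all promoters in the table, 19.3% hold ACGTG on either strand. A match is a description of the letters and not evidence that a factor binds there.

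Xiap encodes the inhibitor that binds active caspases directly and blocks them. Probe set 1379555_at read 1000.3, 784, 809.9 and 793 at P1 and 1687, 1343, 1189.9 and 1237 at P21. Replicate 1 was the highest array at both ages, and the ages did not overlap. The mean went from 847 ± 103 to 1364 ± 225, a change of 0.67 ± 0.13 or 1.59-fold higher (limma adjusted p = 0.00326), and 0.53 on centred arrays. Same-numbered arrays differed by 0.55 to 0.76, higher at P21 in 4 of 4. The other Xiap probe set, 1369248_a_at, read 45.5 to 66.5 at P1 and 39.5 to 80.8 at P21, far under the filter level on every array, so the rise rests on 1 probe set here too.

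Over the 15 member probe sets, 11 passed the filter, of which 4 rose, 2 fell and 5 did not pass. Among all 19155 kept probe sets 20.8% rose and 17.4% fell. Of the same 11, 5 had all P21 arrays above all P1 arrays and 2 had them below, beside 20.4% and 17.7% of all kept probe sets. Of the 5 genes with more than 1 probe set, Bnip3l was the one in which every probe set was called, and Mcl1 the one with probe sets called in opposite directions when fitted without the filter.

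The genes whose level over the 8 arrays was most like that of Bcl2l2 were Ankrd40 (Pearson r = 0.992), Itsn2 (0.991) and Crebl2 (0.989). Those most like Bbc3 were Zfp512b (0.997), Igsf21 (0.997) and B4galt2 (0.995). These 8 arrays split by age, so the likeness is mostly that of the age difference and is a description with no test.

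Other genes of the same machinery, 1 probe set per gene, were read against the same 39.4% of all genes. Of the other Bcl2 family genes, 11 were measured and 0 passed limma's test (3 at an unadjusted p under 0.05, 3 with the replicate block and 1 with an unmoderated linear model, beside 48.4%, 46.7% and 36.9% of all genes). Their median change was -0.16, and it ranged from -0.29 to 0.05 over the alternatives. Bok and Bid, 2 in all, were called lower on centred arrays and also when the filter was raised to the 60th percentile. The BH3-only gene Bid read 2278 ± 178 and 1815 ± 285 (change -0.34 ± 0.13, adjusted p = 0.0603), and Bok, a Bax-like gene, 2640.0 ± 173 and 2210.1 ± 163 (adjusted p = 0.0554). Bcl2l11 (BIM), named after its values were seen, had a change of 0.21 ± 0.11 on its brightest probe set (adjusted p = 0.157) and of -1.20 ± 0.14 on another (adjusted p = 1.23e-04). Bnip1, likewise named after its values were seen, had a change of -0.16 ± 0.12 on its brightest probe set (adjusted p = 0.352) and of 0.36 ± 0.10 on another (adjusted p = 0.0191).

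Among caspase genes, 4 were measured (Casp1, Casp2, Casp6 and Casp9) and 0 passed limma's test, 0 at an unadjusted p under 0.05 and 0 with an unmoderated linear model, but 2 with the replicate block, Casp1 and Casp9. Their median change was 0.20, or 0.06 on centred arrays. Of 10 genes of the apoptosome and of mitochondrial release, 2 rose and 3 fell, and the median change was -0.07. On centred arrays 1 of these was higher and 3 were lower, with a median of -0.21. Vdac2, among those that fell (change -0.26 ± 0.08, limma adjusted p = 0.0349), kept its call in 7 of 16 alternatives. Apaf1, the scaffold on which initiator caspases are activated, fell from 709 ± 41.8 to 559 ± 42.7 (change -0.33 ± 0.09, adjusted p = 0.0180, lost without P1 replicate 4 at 0.0548). Aifm1, the apoptosis-inducing flavoprotein of mitochondria, fell by 0.40 ± 0.11 on the log2 scale. Septin4, a septin gene whose splice form ARTS antagonises XIAP, rose from 2081 ± 135 to 4595 ± 193 (change 1.14 ± 0.09, adjusted p = 1.05e-05). Which splice form its probe set reads is not analysed here, and the part of oligodendrocyte RNA in its rise was not tested. Dffb, the nuclease that cuts DNA in dying cells, rose by 0.36 ± 0.12, a call kept in 5 of 15 alternatives.

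Of 5 further inhibitor of apoptosis genes, 2 fell and 1 rose. Their median change was 0.26, or 0.12 on centred arrays. Birc5 (survivin), which also serves cell division, fell from 535 ± 20.8 to 349 ± 50.1 (change -0.60 ± 0.11), and Faim, an antagonist of Fas-driven death, by 0.40 ± 0.11. Faim2, a neuronal inhibitor of the same route, had a change of 0.51 ± 0.17 (adjusted p = 0.0406), a call kept in 4 of 15 alternatives. Of 5 death receptor genes measured, Ngfr, the p75 neurotrophin receptor that can signal death, fell from 3731 ± 467 to 262 ± 113 (change -3.83 ± 0.25, adjusted p = 3.95e-06). Only 1 of its 4 P21 arrays was above the filter level, so the size of that change rests on dim values. Tnfrsf1a, the tumour necrosis factor receptor, rose by 0.50 ± 0.10.

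The p53 pathway, which drives Bbc3, did not move one way. Of 12 genes measured, 4 rose and 3 fell. On centred arrays 2 were higher and 3 lower, with Sesn2 and Gadd45a no longer called. Their median change was 0.14, or 0.00 on centred arrays. Mdm2, named after its values were seen, did not pass on its brightest probe set but changed by 0.76 ± 0.16 on another (limma adjusted p = 0.00506). Sesn1 rose from 790.0 ± 121 to 1577 ± 205 (change 0.99 ± 0.14) and Cdkn1a, the cell cycle inhibitor p21, from 632 ± 119 to 1166 ± 259.7 (change 0.86 ± 0.20). Perp, a membrane protein of p53-dependent death, fell from 1077 ± 111 to 178 ± 21.2, at least 3.74-fold, and Ccng1 by 0.66 ± 0.12.

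Mitophagy genes, listed for Bnip3 and Bnip3l, rose in 3 of 11 cases and fell in 1, with a median of 0.01 that was -0.12 on centred arrays. Pink1, among those that rose, kept its call in 10 of 16 alternatives. Gabarapl1 and Gabarap did not pass on their brightest probe sets. On another, Gabarapl1 changed by 0.55 ± 0.10 (limma adjusted p = 0.00201) and Gabarap by -0.36 ± 0.09 (adjusted p = 0.0112), both named after their values were seen. Fundc1, another mitophagy receptor of the outer membrane, rose from 1766 ± 131 to 2591 ± 198 (change 0.55 ± 0.10). Optn, an autophagy adaptor, rose by 0.52 ± 0.09 on its brightest probe set, but another changed by 0.21 ± 0.11 and did not pass (limma adjusted p = 0.178). Phb2, an inner membrane receptor, fell by 0.44 ± 0.11. Of 15 hypoxia genes, 4 rose and 3 fell, and the median was 0.18, or 0.04 on centred arrays. P4ha1 (0.78 ± 0.15) and Epas1 (0.69 ± 0.10) rose, and Ldha (-1.48 ± 0.16) and Egln3 (-1.35 ± 0.09), both induced by hypoxia in many cells, fell.

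**Figure D3:**
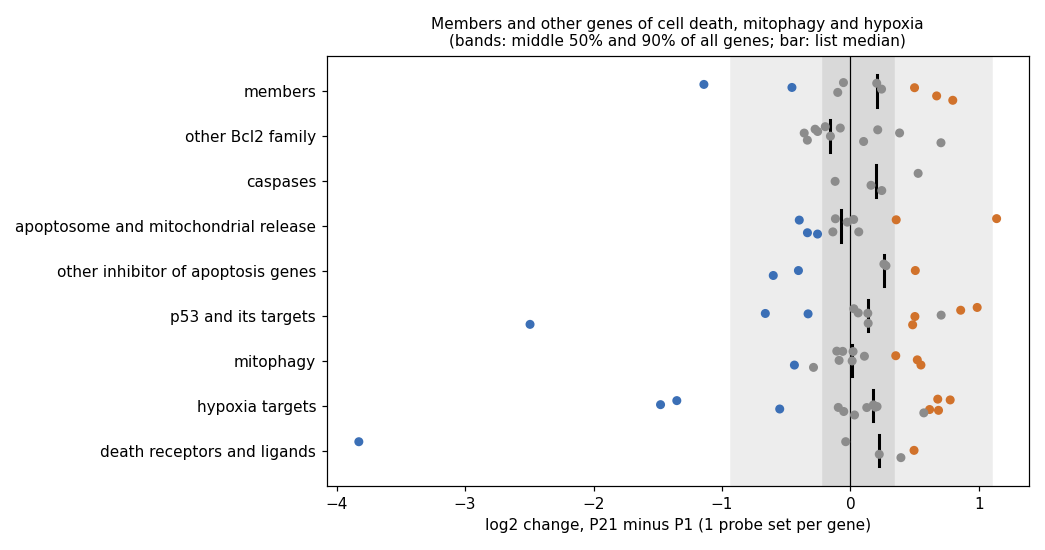
Log2 change from P1 to P21 (horizontal axis) of the member genes and of 8 lists of related genes, 1 probe set per gene; orange rose, blue fell, grey did not pass, black bars mark list medians, and grey bands hold the middle 50% and 90% of all genes. Bbc3 lies outside the wider band, and each list spreads to both sides of 0.

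Across the 8 processing and design alternatives and the 8 fits that each left out 1 array, Bbc3, Bcl2l2 1393707_at, Mcl1 1372520_at, Bnip3l 1386978_at and Xiap 1379555_at passed with the same direction in all 16. Mcl1 came nearest to losing its call, with an adjusted p of up to 0.0372, reached without P1 replicate 4. The change of Bbc3 ranged from -1.28 to -1.08 and that of Bcl2l2 from 0.66 to 0.87.

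**Figure D4:**
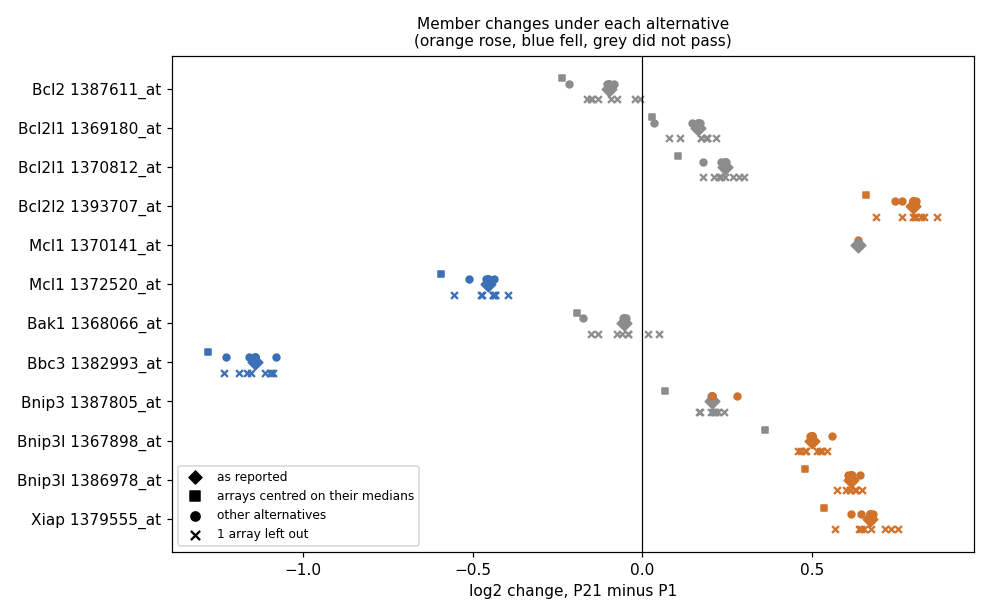
Log2 change from P1 to P21 (horizontal axis) of the tested member probe sets and the dim Mcl1 probe set under each alternative: diamonds as reported, squares with centred arrays, circles other settings, crosses with 1 array left out; orange rose, blue fell, grey did not pass or was not tested. Centring shifts each of the 11 tested probe sets to the left (the dim Mcl1 probe set has no centred value), and Mcl1 holds values on both sides of 0.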

How the data were processed

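Expression was measured on 8 arrays, 4 at P1 and 4 at P21. The authors deposited a linear intensity per probe set. The methods of summary, background correction and normalization are not stated in the labels. Depth is not defined for arrays, and their number limits the precision. The table held 0 missing values and 66 to 250 values below 0 per array.

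After values below 0 were raised to 0, log2(intensity + 16) was fitted with limma 3.58.1 (lmFit, eBayes) in R 4.3.3 on all arrays with no covariate. The filter kept 19155 of 31042 probe sets, those brighter than the 40th percentile of the array on 4 or more arrays. P-values were adjusted over these by Benjamini-Hochberg, with a call at an adjusted p under 0.05. The labels call the arrays biological replicates of pooled rats. Where all 4 intensities of an age lay under that percentile, the text gives a lower bound for the fold, from the mean of the brighter age and the percentile, unless that bound is under 1. Symbols came from the platform annotation, checked by gene identifier against the GRCr8 table (20758 of 20826 matched, all 15 member probe sets among them). No genome coordinates of probe sets are printed, since that annotation names no assembly. The test was tested on simulated data.

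The members, lists and tests were chosen with earlier results of these data known. Genes named from each list are the 2 called ones with the largest change in each direction, with others given by value only. Lists were described by counts and medians, with no set test. Same-numbered arrays deviated together from their age means, with correlations of 0.514, 0.321, 0.558 and 0.150 for numbers 1 to 4. All exceed 0.1, and the litters were divided between the ages, which meets the criterion for pairing. The sample titles number the replicates and name no litter. The reported fit has no block, so its calls and adjusted p-values leave this pairing out. The fit with the replicate number as a block is given above where it changes a member's call. It is also given there for the other Bcl2 family, the caspases and the interneuron markers. The blocked fit further called Birc7, Tp53inp1 and Ripk1 higher. With it, 2 further inhibitor of apoptosis genes, 5 p53 pathway genes and 2 death receptor genes were higher, in place of 1, 4 and 1. Of the markers of dividing cells it called 4 in place of 3. P1 replicate 4 correlated higher, at 0.366, with another number. Alternatives were the replicate block, pseudocounts of 4 and 64, no filter or one at the 60th percentile, centring, quantile normalization, an unmoderated linear model, other rules for genes with several probe sets, and leaving out each array on the same kept probe sets. The same alternatives for the lists were added after the data were seen.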

Additional observations from a re-analysis of the deposited data

Results flagged for a closer look

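In 30 groups of 4 arrays (15 probe sets at 2 ages), 2 held an array far from the other members of its group, by Dixon's test, which by chance picks out about 1 group in 20. Bnip3 at P21 read 7929 on replicate 3 against 7055 to 7204 on the other arrays, and without that array its change was 0.17 (adjusted p = 0.200) in place of 0.20. Xiap 1379555_at at P1 read 1000.3 on replicate 1 against 784 to 809.9, and without that array its change was 0.75 (adjusted p = 0.00295) in place of 0.67.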

How the results depend on the processing

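No member value turned direction while called, 84 of 89 values from the processing and design alternatives kept their side of the threshold, and all 88 values with 1 array left out did. The exceptions are Bnip3l 1367898_at, not called on centred arrays, Bnip3, called with quantile normalization and with an unmoderated linear model, Bcl2l1 1370812_at, called with the replicate block, and Mcl1 1370141_at, called without the filter. With the replicate block, 4 member genes were higher and 2 lower, in place of 3 and 2, and the block changed no other member call. On centred arrays 2 member genes were higher and 2 lower. Taking the mean of a gene's kept probe sets, or the one of lowest adjusted p, left 3 higher and 2 lower. Over all probe sets, 2631 were called higher at P21 on centred arrays in place of 3990, and 8805 were called with the block in place of 7329. The causes of these differences were not tested. Brightness limits what can be said of 4 of the 15 member probe sets, which did not pass the filter, and of Bcl2 at P21.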
